A study of Homo sapiens with 6 samples.

Results

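Cytosolic ribosomal protein genes encode the protein part of the ribosomes that translate nuclear messages in the cytosol. They were chosen here by their symbols, as the protein-coding genes named RPL or RPS with a number, with RPLP0, RPLP1, RPLP2 and RPSA added and the RPS6K kinases left out. The rule found 81 of the 25349 genes in the count table, of which 49 belong to the large subunit and 32 to the small subunit. The cells were SCC-9, an established line of human tongue squamous cell carcinoma. They received 10 nM of an siRNA that targets exon 7 of MKI67, which encodes the proliferation marker Ki67 (siE7), or of a nonspecific siRNA (siNC). Transfection was done on day 0 and, after passage, again on day 2, and RNA was taken on day 4 for 3 libraries per group. The methods list several siRNAs against exon 7 without naming the one used for these libraries, and nothing states that the libraries of a group came from separate cultures, so the p-values measure the spread between these libraries, which may be technical.

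The large subunit of the ribosome joins amino acids and the small subunit reads the message. Each subunit holds most of its proteins in 1 copy, and the genes are spread over many chromosomes, while the cell makes their products in matched amounts. Many of their messages begin with a 5′ terminal oligopyrimidine (TOP) tract, a C followed by a run of C and T, through which mTOR signalling and the RNA-binding protein LARP1 set how well they are translated. Proliferating cells devote a large part of their messages to these genes, and several ribosomal proteins left outside the ribosome bind the ubiquitin ligase MDM2.

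The TOP tract was looked for as a C at the RefSeq gene start followed by at least 4 bases that are each C or T, on the strand of the gene. RefSeq (GRCh38.p14) gave a start for 64 members, and 46 of them (71.9%) carried such a run. The same run stood at the start of 733 of 10466 tested genes outside the group (7.00%) and of 6 of 69 mitochondrial ribosomal protein genes (8.70%). Counted by entry and not by gene, it stood at 46 of 79 entries of members (58.2%) and at 1429 of all 35116 entries (4.07%). Below, 20 bases before and 10 bases from the start are shown 5′ to 3′, with the run in capitals, for 4 genes whose RNA level changed (RPS27, RPL34, RPL13A and RPS29) and for 3 well-known members (RPLP0, RPS6 and RPSA).
RPS27 (chr1:153990742-153990771, plus strand): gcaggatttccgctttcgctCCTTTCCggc
RPL34 (chr4:108620556-108620585, plus strand): ctggcaaaggcttttttcttCCTCTTCCgg
RPL13A (chr19:49487588-49487617, plus strand): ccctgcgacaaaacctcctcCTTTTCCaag
RPS29 (chr14:49598701-49598730, minus strand): ttttcccccgagcgcgcagctggcagcggt
RPLP0 (chr12:120201102-120201131, minus strand): ggcacgcgcgggcgcgaggcCCTTCTCTCg
RPS6 (chr9:19380227-19380256, minus strand): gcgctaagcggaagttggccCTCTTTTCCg
RPSA (chr3:39406700-39406729, plus strand): cgtcatttcctgccgcctgtCTTTTCCgtg
The RPS29 entry held no such run at its annotated start, which says only that these letters are not at that position. A match is a description of the letters and not a measured start site.

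The libraries held 25608192 to 29550264 counts on genes. MKI67 fell from 1072, 1028 and 1076 counts scaled to library size (CPM) in the siNC libraries to 112, 124 and 108 CPM in the siE7 libraries, a log2 fold change of -3.21 (SE 0.11, adjusted p = 6.7e-08, edgeR). CPM here is the count for each 1e+06 counts of a library, with the library total multiplied by its TMM factor, a scaling that sets the bulk of genes level between libraries. The siE7 replicate 1 library stood apart from the other libraries of its group: a chi-square per degree of freedom over genes was 61.1 and 72.7 for its comparisons with siE7 replicates 2 and 3, against 5.54 to 6.22 for every other pair within a group. For most of the genes described, values without it are therefore given where its absence changed a call. All 8 squamous epithelial markers of a fixed list were detected, with a summed level of 18246 to 19029 CPM with siNC and 18188 to 23684 CPM with siE7. Of them, 1 was called higher and 5 lower, beside 18.0% and 16.0% of all tested genes. The 7 fibroblast markers summed to 16.5 to 24.1 CPM over all libraries, and leukocyte and endothelial markers did not exceed 0.643 and 0.303 CPM.

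Few ribosomal protein genes changed past the test after siE7. RPS29, RPS27, RPL34 and RPL13A were higher and RPL39L was lower, and no member passed a log2 fold change of 1. Of 79 members tested, 5 (6.33%) were called at an adjusted p under 0.05 by edgeR's quasi-likelihood F-test, where 34.0% of all 14661 tested genes were called. In all, 4 members were higher and 1 lower, beside 18.0% and 16.0% of tested genes. No member met both the adjusted p and a log2 fold change beyond 1, a limit that 12.2% of tested genes passed. The other 2 members, RPS10 and RPL3L, had at most 9 counts in any library and were not tested. Unadjusted p-values under 0.05 were found for 12 members, and for at least the 34.0% of tested genes that were called. DESeq2 called 5 of 81 members (6.17%), 3 higher and 2 lower, where it called 19.2% of all 25349 genes. Of these members, 0 were beyond a log2 fold change of 1.

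The fold changes of the members lay close together. Their median log2 fold change was 0.05, beside 0.08 for all tested genes, and their standard deviation was 0.22, beside 0.73. For 75 of 79 members (94.9%) the log2 fold change was within 0.5 of 0, which held for 60.8% of all tested genes. The median was 0.04 over the 48 tested members of the large subunit and 0.06 over the 31 of the small subunit. The sign of the members' median depended on the scaling, since it was -0.02 with DESeq2, 0.00 with RLE factors and 0.07 with upper-quartile factors. With library totals and no TMM factor it was 0.21, and under that scaling the median of all genes moved up by 0.17, to 0.25, and stayed above that of the members.

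**Figure D1:**
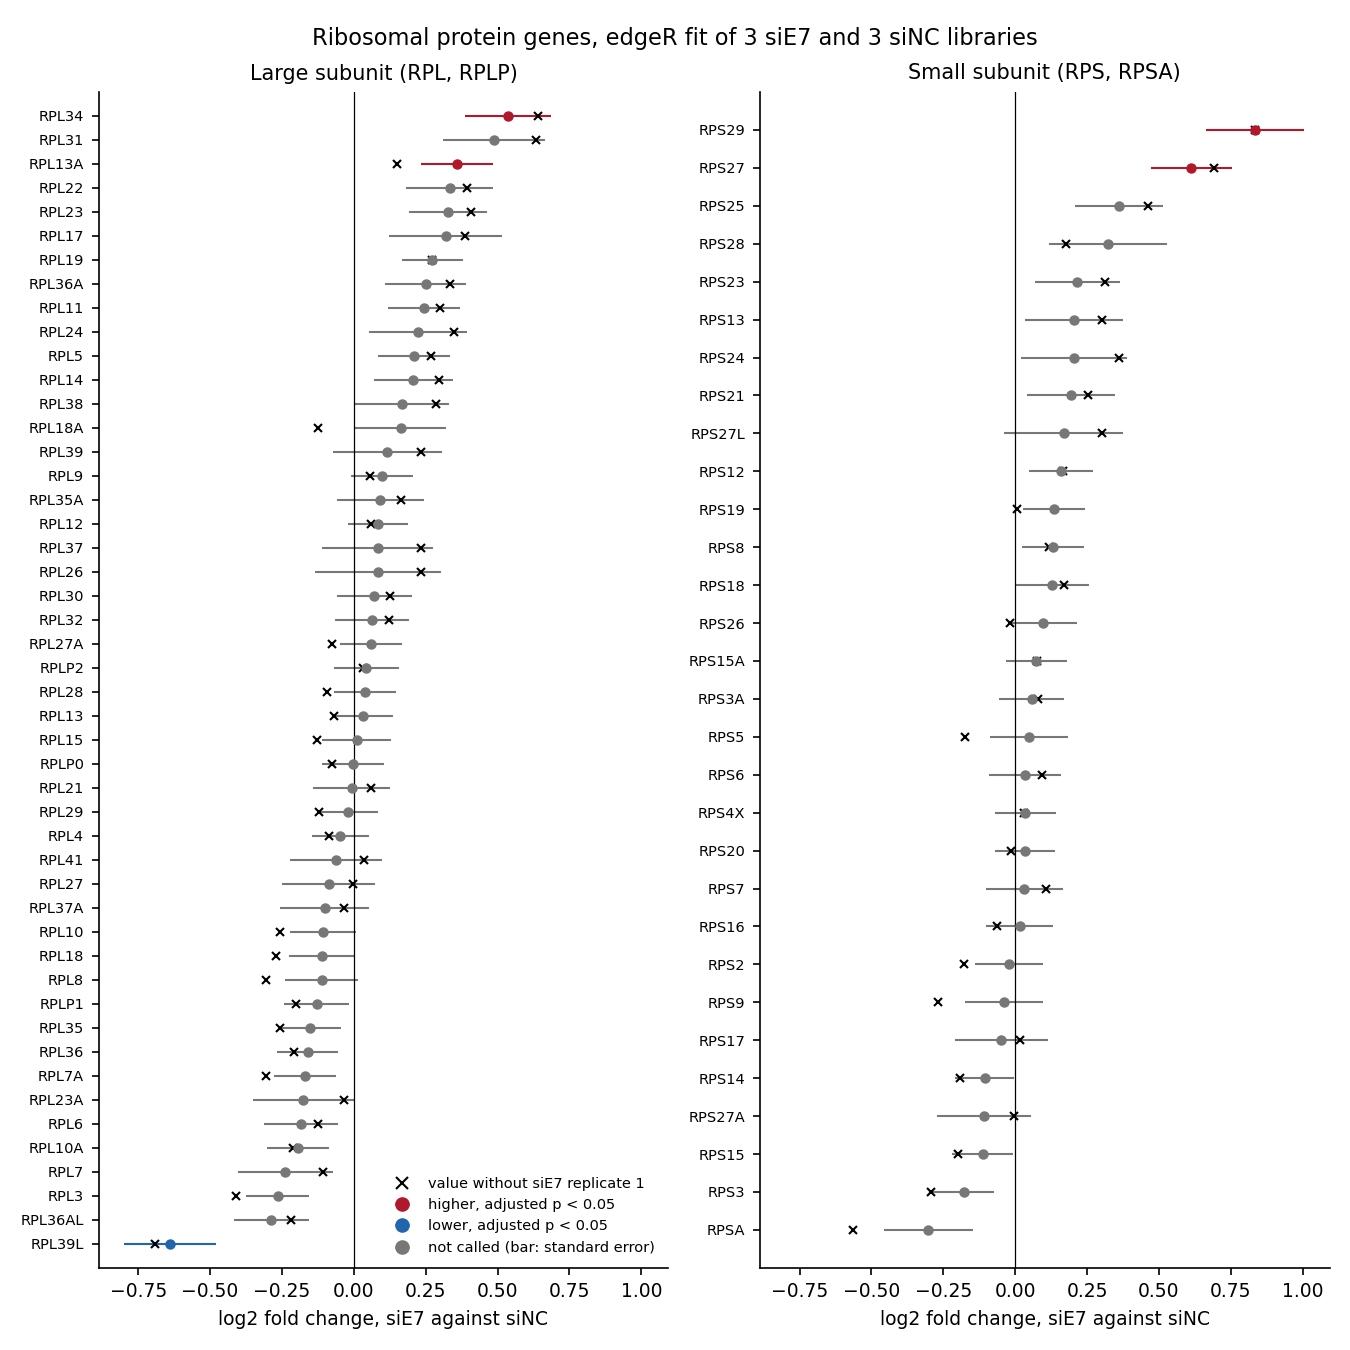
Log2 fold change (siE7 against siNC, x axis) of 78 of the 79 tested members, sorted within each subunit, with a bar of 1 standard error of the edgeR fit of all 6 libraries; crosses give the value without siE7 replicate 1. RPS29 (0.83), RPS27 (0.61), RPL34 (0.54) and RPL13A (0.36) were called higher and RPL39L (-0.64) lower, and the crosses of RPSA and RPL3 lie well to the left of their points.

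In the fit of all 6 libraries, the median standard error of the log2 fold change was 0.13 over members and 0.18 over all tested genes. Among genes above an average of 256 CPM, 2 of 48 members were called, against 291 of 664 other genes (43.8%), with median standard errors of 0.12 in both sets. In 12 of 79 members (15.2%) the ranges of the groups did not overlap in CPM, where 47.6% of all tested genes did not. Of these, 5 were higher and 7 lower with siE7, where 24.9% and 22.7% of all tested genes were.

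**Figure D2:**
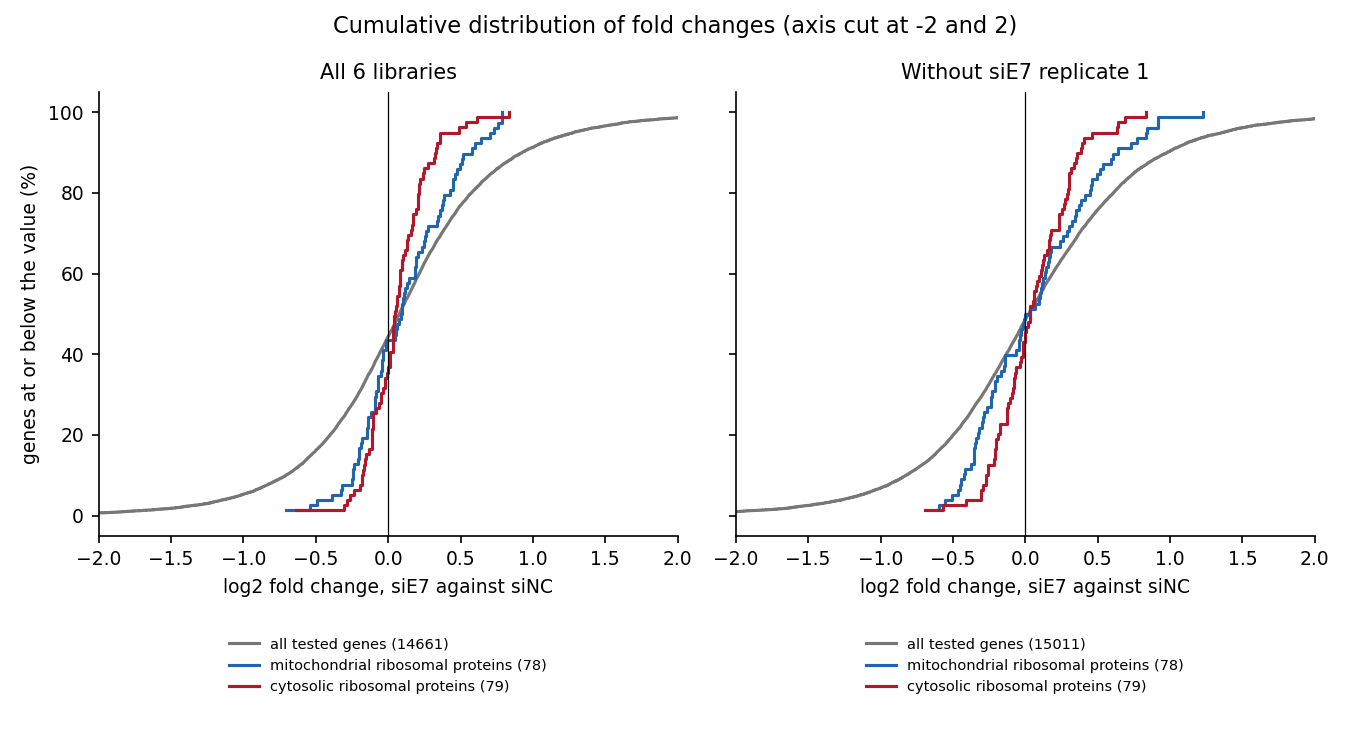
Percentage of genes (y axis) at or below each log2 fold change (x axis, siE7 against siNC) for all tested genes, mitochondrial and cytosolic ribosomal protein genes, in the fit of all 6 libraries (left) and without siE7 replicate 1 (right). The curve of the cytosolic ribosomal protein genes is the steepest in both panels, with a standard deviation of 0.22 on the left and 0.27 on the right.

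As a share of all counts on genes, the members took 3.56%, 3.75% and 3.42% in the siNC libraries and 3.81%, 4.21% and 4.43% in the siE7 libraries. The share was higher in each siE7 library than in any siNC library (p = 0.10 in an exact two-sided permutation of the libraries, which cannot go lower with 3 against 3). Per effective library size, which takes the TMM factor into account, it was 3.73%, 3.99% and 3.66% with siNC and 3.80%, 3.90% and 4.03% with siE7, and the groups overlapped (exact permutation p = 0.40). Without RPL13A, the member with most counts, the first share also overlapped between the groups (exact permutation p = 0.20). In bulk samples a change in the amount of RNA per cell and a change in the number of cells cannot be told apart, and these shares say nothing about the amount of ribosomal protein RNA per cell. The summed large subunit counts were 2.38, 2.39 and 2.43 times those of the small subunit with siNC and 2.42, 2.53 and 2.49 times with siE7 (exact permutation p = 0.20), so the ranges overlapped.

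The stalk of the large subunit, where translation factors bind, is built from RPLP0 with RPLP1 and RPLP2. RPLP0, whose message is often used as a reference in qRT-PCR, was at 1009, 1005 and 868 CPM with siNC and at 979, 907 and 992 CPM with siE7. The groups overlapped and the log2 fold change was 0.00 (SE 0.11, adjusted p = 0.99, edgeR). RPLP1 gave -0.13 (SE 0.11) and RPLP2 gave 0.04 (SE 0.11) on the same scale, and neither was called. RPLP1 was called at -0.20 (adjusted p = 0.012, edgeR) without siE7 replicate 1, and RPLP0 and RPLP2 were not. The sign of RPLP0 and of RPLP2 changed between settings, with each value near 0.

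Within the large subunit, RPL34 and RPL13A rose. RPL34 was at 64.7, 64.4 and 62.8 CPM with siNC and at 70.5, 104 and 104 CPM with siE7. All siE7 libraries were above the siNC libraries, and siE7 replicate 1 was the lowest of them. Its log2 fold change was 0.54 (SE 0.15, adjusted p = 0.017, edgeR), a 1.45-fold rise, and it was not called when any library but siE7 replicate 1 was left out (adjusted p up to 0.078).

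RPL13A, which besides its place in the ribosome serves in the interferon-gamma-activated inhibitor of translation complex, had the most counts of all members. It was at 2206, 2228 and 2148 CPM with siNC and at 3362, 2530 and 2555 CPM with siE7. The groups did not overlap, but siE7 replicate 1 was far above the other siE7 libraries. The log2 fold change was 0.36 (SE 0.13, adjusted p = 0.045, edgeR) with it and 0.15 (adjusted p = 0.019) without it. DESeq2 did not call it (adjusted p = 0.11), nor did edgeR when any 1 siNC library was left out (adjusted p up to 0.17). The RPL13A gene also hosts small nucleolar RNAs (SNORD32A, SNORD33, SNORD34 and SNORD35A) on its own strand, and how reads on them were counted is not given in the sources used here.

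RPL39L was the only member called lower in the fit of all 6 libraries. It is a paralog of RPL39, a small protein of the exit tunnel of the large subunit, and is known for high expression in testis and in some cancer cells. It was at 20.6, 28.2 and 21.1 CPM with siNC and at 14.8, 14.0 and 16.0 CPM with siE7. Every siE7 library was below the siNC libraries, and siNC replicate 2 was the highest. The log2 fold change was -0.64 (SE 0.16, adjusted p = 0.0099, edgeR), a level 0.643 times that of siNC, and -0.48 (adjusted p = 0.072) without siNC replicate 2.

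RPL5 and RPL11 form, with the 5S RNA, the particle that binds MDM2. RPL5 was at 1387, 1338 and 1321 CPM with siNC and at 1296, 1784 and 1601 CPM with siE7. RPL11 was at 223, 249 and 230 CPM with siNC and at 231, 292 and 309 CPM with siE7. For each of them siE7 replicates 2 and 3 were above all siNC libraries and siE7 replicate 1 was not. Their log2 fold changes were 0.21 (SE 0.13) and 0.24 (SE 0.13), with adjusted p of 0.22 and 0.16 by edgeR, and 0.27 and 0.30 without siE7 replicate 1, where both were called. RPL3, which lies near the site where amino acids are joined, was at 1316, 1333 and 1253 CPM with siNC and at 1208, 983 and 1057 CPM with siE7. All siE7 libraries were below the siNC libraries, but its log2 fold change of -0.26 (SE 0.11) was not called (adjusted p = 0.085, edgeR). It was called in 3 of the 18 alternative settings, 2 of them with the GC trend removed and 1 without siE7 replicate 1, where it was -0.41. Of the other large subunit genes, RPL31, RPL22, RPL23, RPL17 and RPL19 had the highest log2 fold changes, between 0.27 and 0.49, and were not called. All 5 were called, at 0.27 to 0.63, when siE7 replicate 1 was left out. RPL31, RPL23 and RPL17 are named here because their values were seen.

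**Figure D3:**
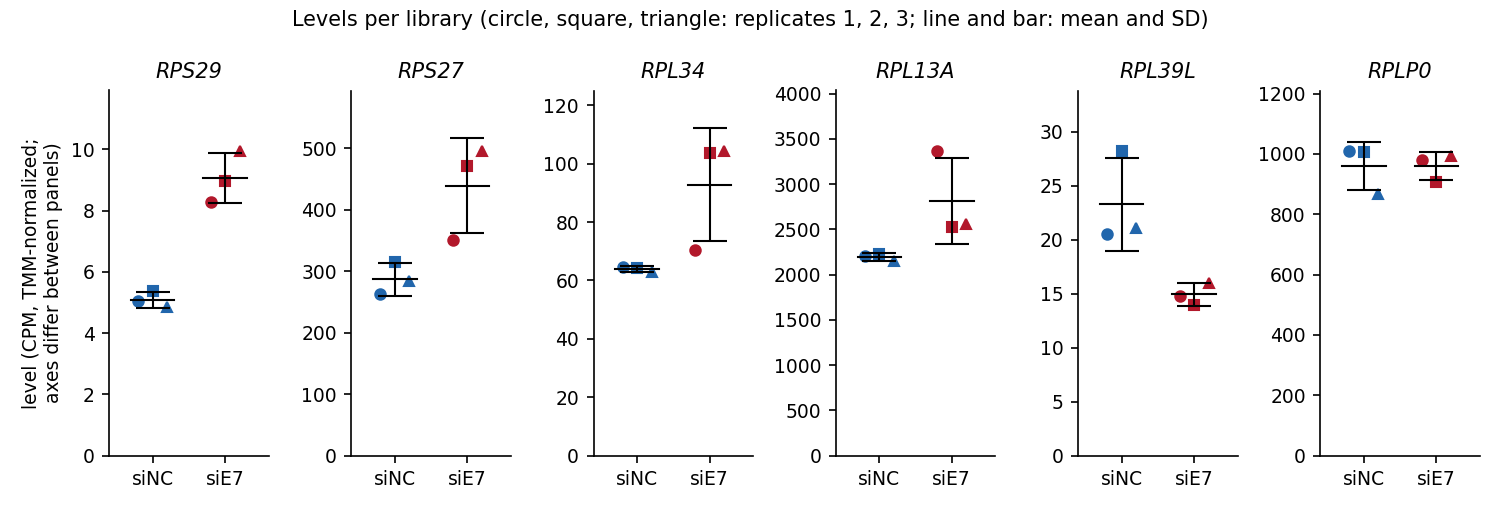
Level in CPM (y axis, from 0) of the 5 called members and of RPLP0 in each siNC and siE7 library (symbols), with the mean and SD of the 3 libraries of each group. RPS29 was at 4.84 to 5.36 CPM with siNC and 8.29 to 9.94 CPM with siE7, RPL13A and RPL34 have 1 siE7 library apart from the others, and RPLP0 overlaps between the groups.

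In the small subunit, RPS29 and RPS27 rose. Each binds zinc, and RPS27 is also known as metallopanstimulin. RPS29 was at 5.06, 5.36 and 4.84 CPM with siNC and at 8.29, 8.98 and 9.94 CPM with siE7. The ranges were far apart, and the log2 fold change of 0.83 (SE 0.17, adjusted p = 0.0033, edgeR) was the largest of all members, a 1.78-fold rise. The counts behind it ran from 125 to 304 in a library. This is a low level for the group, as the median over members was 319 CPM with siNC. The annotation places RPL32P29 and a Y RNA over the RPS29 locus on its own strand, and RN7SL1 and LRR1 on the other strand. The share of the RPS29 counts that comes from these genes was not tested.

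RPS27 was at 262, 315 and 283 CPM with siNC and at 350, 471 and 495 CPM with siE7. Each siE7 library was above each siNC library, and the log2 fold change was 0.61 (SE 0.14, adjusted p = 0.0064, edgeR), a 1.53-fold rise. RPS29 and RPS27 were called in all 18 alternative settings planned for these genes, RPL39L in 17, RPL34 in 13 and RPL13A in 10.

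RPSA, which is also the precursor of the laminin receptor, differed between the siE7 libraries. It was at 1290, 1318 and 1256 CPM with siNC and at 1316, 1010 and 806 CPM with siE7. The siE7 replicate 1 library lay within the siNC range and the other siE7 libraries lay below it. The log2 fold change was -0.30 (SE 0.15, adjusted p = 0.15, edgeR) with all libraries and -0.57 (adjusted p = 6.3e-08) without siE7 replicate 1.

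RPS6, the substrate of the S6 kinases, was at 379, 412 and 386 CPM with siNC and at 333, 427 and 446 CPM with siE7. RPS4X, encoded on the X chromosome, was at 498, 497 and 459 CPM with siNC and at 457, 511 and 522 CPM with siE7. Both overlapped between the groups, with a log2 fold change of 0.04 for each (SE 0.13 and 0.11), and the sign of both values depended on the setting. RPS3, which also acts in DNA repair, was at 1102, 1141 and 1049 CPM with siNC and at 1040, 894 and 973 CPM with siE7. All its siE7 libraries were below the siNC libraries, but the log2 fold change of -0.18 (SE 0.11) was not called (adjusted p = 0.21, edgeR). It was -0.29 without siE7 replicate 1 and called (adjusted p = 4.6e-05, edgeR), while RPS6 and RPS4X were not called.

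Per kilobase of annotated exon, RPL13A was the highest member, and RPL35, RPL19 and RPL7A were also among the 5 highest. The mean levels of these 4 genes over all libraries were 776, 750.0, 597 and 512 CPM per kilobase. The lengths are those of all annotated exons of a gene together, so genes with long rare transcripts come out low. Of these genes RPL19 was above the siNC range in every siE7 library, at 1845, 2020 and 1964 CPM with siNC and at 2151, 2394 and 2497 CPM with siE7. Its log2 fold change of 0.27 (SE 0.11) was not called (adjusted p = 0.066, edgeR). RPL35 and RPL7A had log2 fold changes of -0.15 and -0.17 and were not called. When siE7 replicate 1 was left out, RPL35 (-0.26) and RPL7A (-0.31) were called lower and RPL19 (0.27) higher, and RPL19 was called in 6 of the 18 alternative settings.

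When the libraries were scaled so that the members were level, 4 members departed from the rest, where 30.8% of all tested genes were called under this scaling. They were RPS29 (log2 fold change 0.79), RPS27 (0.56), RPL34 (0.48) and RPL39L (-0.67). Without siE7 replicate 1, 31 members were called under this scaling, where 52.1% of all tested genes were.

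Leaving out siE7 replicate 1 changed the count of called members more than any other library did. Without it, 40 of 79 members (50.6%) were called by edgeR, where 58.4% of all 15011 tested genes were called. They were 22 higher and 18 lower, beside 28.9% and 29.5% of all tested genes. None of the 40 passed a log2 fold change of 1, as 14.8% of tested genes did. Leaving out any other single library gave 2 to 4 called members, where 20.9% to 26.8% of all tested genes were called. The median log2 fold change stayed near 0, at 0.03 beside 0.02 for all genes. The median standard error of the members was 0.06 in place of 0.13, and that of all tested genes was 0.13 in place of 0.18. Those called higher had log2 fold changes of 0.15 to 0.83, with 13 in the large and 9 in the small subunit. Those called lower ran from -0.69 to -0.17, with 11 in the large and 7 in the small subunit. Named because their values were seen, the largest rises after RPS29, RPS27 and RPL34 were those of RPL31 (0.63) and RPS25 (0.46), and the largest falls after RPL39L were those of RPSA (-0.57), RPL3 (-0.41) and RPL8 (-0.31). Of genes above 256 CPM, 25 of 49 members (51.0%) and 81.4% of 666 other genes were called in this comparison.

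The members that moved in each direction differed in GC content. In the comparison without siE7 replicate 1, the 22 called higher had a median GC content of 45.6% in their canonical transcripts and the 18 called lower one of 53.1%, beside 47.5% for all tested members. Among 24 members under 45% GC, 9 were called higher and 1 lower, and among 13 members over 55% GC, 0 were called higher and 8 lower. Of all tested genes, whatever their GC content, 28.9% were called higher and 29.5% lower, and their shares within these GC classes were not taken. With siE7 replicate 1 as a single library, the relation to GC content ran the other way. Over the 79 members, Spearman's rho between GC content and the log2 difference from the siNC mean was -0.49 for the mean of siE7 replicates 2 and 3 and 0.44 for siE7 replicate 1. For the mean of siE7 replicates 2 and 3 it was -0.26 over 14645 tested genes, so a weaker relation of the same sign held outside the members. Between siE7 replicate 1 and the other siE7 libraries, rho of the difference with GC content was 0.69 over members and 0.75 over 14645 tested genes. The points of these correlations are genes of the same few libraries and share their depth and base composition, so they are descriptions without a test. After the GC trend of each library was removed, 39 members were called without siE7 replicate 1, 18 higher and 21 lower, where 56.1% of all genes were called and 25.3% were higher. The part that GC content has in the calls without siE7 replicate 1 was otherwise not tested.

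**Figure D4:**
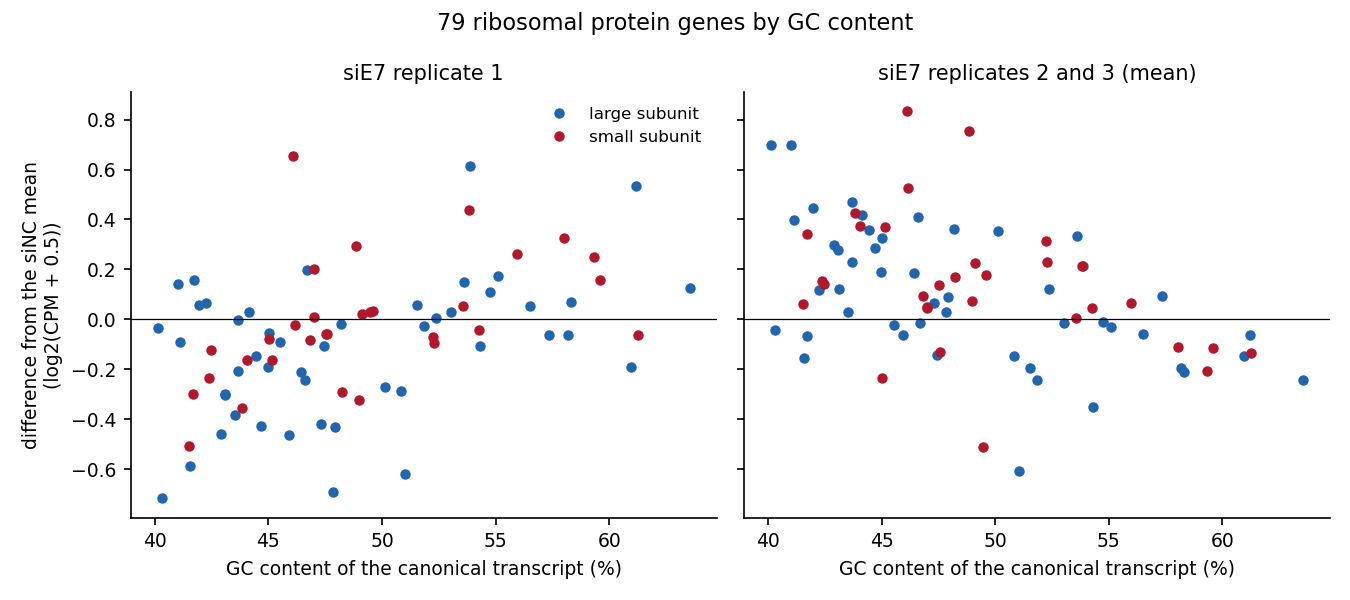
Difference of the level from the siNC mean (y axis, log2 of CPM plus 0.5) against the GC content of the canonical transcript (x axis, percent) for the 79 tested members, for siE7 replicate 1 (left) and the mean of siE7 replicates 2 and 3 (right). The points rise with GC content on the left (rho 0.44) and fall with it on the right (rho -0.49).

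With all libraries and the GC trend removed, 16 members were called, 10 higher and 6 lower, where 50.7% of tested genes were called, 26.4% higher and 24.3% lower. With library totals in place of TMM, 16 members were called, 15 higher and 1 lower, where 38.6% of tested genes were called, 27.4% higher and 11.1% lower. Under that scaling 1 member, RPS29, passed a log2 fold change of 1 (1.00), as did 13.7% of tested genes. Without siE7 replicate 1, library totals gave 55 members higher and 3 lower, where 63.0% of tested genes were called and 45.7% were higher. The split of calls between higher and lower thus followed the scaling, while RPS29, RPS27, RPL34, RPL13A and RPL39L kept their direction in the 18 alternative settings planned. The median log2 fold change was 0.06 over 45 tested members with a TOP run and 0.03 over 18 without, of which 3 and 1 were called in the fit in which 34.0% of all tested genes were, and the difference was not tested.

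Several ribosomal protein genes have a paralog, and the ratio of a pair within a library does not depend on how libraries are scaled. In 6 of the 7 pairs measured, the log2 ratio of paralog to standard gene did not overlap between the groups (exact two-sided permutation p = 0.10 for each, adjusted p = 0.12 over 7 pairs). Taken singly, 47.6% of all tested genes did not overlap in CPM, and the share over ratios of other gene pairs was not taken. The smallest p that this design allows is 0.10, so no pair could pass the threshold.

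In each pair with an L1 ending the ratio was higher in all siE7 libraries than in any siNC library. RPL26L1 to RPL26 was 1.93, 1.56 and 1.83 with siNC and 3.07, 2.63 and 2.45 with siE7 on the log2 scale. The mean difference was 0.94, 1.92 times the ratio with siNC. RPL26L1 itself rose from 31.0, 31.1 and 32.0 CPM to 56.3, 66.6 and 64.7 CPM, a log2 fold change of 1.00 (SE 0.12, adjusted p = 0.00011, edgeR), while RPL26 stayed uncalled at 0.08. RPL22L1, known to be able to stand in for RPL22, rose by a log2 fold change of 0.66 (SE 0.16, adjusted p = 0.0086, edgeR), from 14.4, 13.2 and 12.4 CPM to 17.1, 22.4 and 23.7 CPM. Its ratio to RPL22 was 0.32 higher on the log2 scale, as RPL22 had a log2 fold change of 0.33, which was called without siE7 replicate 1 (0.39) and not with all libraries. RPL7L1, a factor in large subunit assembly, had a log2 fold change of 0.37 (adjusted p = 0.053, edgeR), or 0.44 and called without siE7 replicate 1, and its ratio to RPL7 was 0.62 higher. Leaving out siNC replicate 3 ended the call of RPL22L1 (0.60, adjusted p = 0.056).

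In 3 of the 4 pairs with an L ending the ratio was lower in all siE7 libraries than in any siNC library. The ratio of RPL39L to RPL39 was -0.46, -0.29 and -0.41 with siNC and -0.71, -1.17 and -1.40 with siE7, a mean difference of -0.71 on the log2 scale. RPL36AL to RPL36A changed by -0.54, with RPL36AL at -0.29 and RPL36A at 0.25 in log2 fold change, neither called. Both were called when siE7 replicate 1 was left out, RPL36AL at -0.22 and RPL36A at 0.33. RPS27L to RPS27 changed by -0.47, and here it was RPS27 that rose, while RPS27L had a log2 fold change of 0.17 (SE 0.21, not called). RPL3L, a muscle gene, had 1 to 7 counts in a library, and its ratio to RPL3 overlapped between the groups (exact permutation p = 0.50). Near-identical copies share reads, and how reads that match several genes were counted is not given in the sources used here. The level of each of these genes against its paralog, RPL36A and RPS27 included, is therefore uncertain.

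Counts of some members were split over other rows of the table. RPS10 had 0 to 9 counts while the read-through gene RPS10-NUDT3 had 13941 to 19674, and RPL17 had 173 to 342 counts while RPL17-C18orf32 had 6920 to 13139. These genes were chosen after their values were seen. With the read-through and pseudogene rows added to their member, RPS10 gave a log2 fold change of -0.04 (adjusted p = 0.82, edgeR) and RPL17 one of 0.39 (adjusted p = 0.049), and 6 of 80 members (7.50%) were called, where 34.1% of all genes were. RPL36A-HNRNPH2, a read-through of RPL36A, was itself called, at 0.62 (SE 0.16, adjusted p = 0.0098, edgeR). The table held 357 pseudogene rows for 64 members. Their counts came to 76.4% of those of RPS28, 28.4% of those of RPL9 and 15.2% of those of RPS2, and to 663% and 47.5% of the few counts of RPS10 and RPL17, so the levels of these 5 members are uncertain.

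FAU and RACK1, ribosomal proteins with other names, gave no call. FAU, which encodes RPS30 fused to a ubiquitin-like protein, had a log2 fold change of 0.28 (SE 0.12, adjusted p = 0.084, edgeR). RACK1, a scaffold on the small subunit, had -0.15 (SE 0.10) and was not called either. Without siE7 replicate 1, RACK1 (-0.22) was called and FAU was not.

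Mitochondrial ribosomal protein genes, which serve the separate ribosome of mitochondria, were taken as the gene group most alike. Of 78 tested, 17 (21.8%) were called, 13 higher and 4 lower, with a median log2 fold change of 0.09, beside 34.0% of all tested genes called. Without siE7 replicate 1, 54 (69.2%) were called, 26 higher and 28 lower, beside 58.4% of all genes. With library totals 27 were higher and 2 lower, beside 27.4% and 11.1% of all tested genes. MRPL22 (0.64), MRPS14 (0.73) and MRPS35 (0.76) rose and MRPL20 (-0.54) and MRPS24 (-0.49) fell. The difference between the mitochondrial and the cytosolic group was not tested.

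Genes that share the TOP tract or act on it were listed as well. Of 16 translation factors and other TOP genes, 6 (37.5%) were called, beside 34.0% of all tested genes, with EIF3F (0.57) and EIF4B (0.40) higher and EEF1B2 (-0.41), PABPC1 (-0.39) and EIF3L (-0.38) lower among the 5 with the smallest p. Leaving out siE7 replicate 1, 13 were called, 7 higher and 6 lower, and with library totals 5 were higher and 0 lower. Of all tested genes, 58.4% were called without siE7 replicate 1, and 27.4% were higher and 11.1% lower with library totals. EIF3F was not called once the GC trend was removed (adjusted p = 0.12, edgeR). Of 16 genes of mTOR and cap-dependent control, 3 were called, all of them lower, beside 34.0% of all tested genes called and 16.0% lower. Leaving out siE7 replicate 1, 12 were called, 3 higher and 9 lower, beside 58.4% of all tested genes called. With library totals 2 were higher and 2 lower, beside 27.4% and 11.1% of all tested genes. Those called in the fit of all 6 libraries were EIF4EBP2 (-0.68) and EIF4EBP1 (-0.44), which hold back the cap-binding protein EIF4E, and EIF4G1 (-0.57), the scaffold of the cap-binding complex. MTOR (-0.07) and LARP1 (0.07), named for their known roles, were not called with all libraries, and without siE7 replicate 1 MTOR was called at -0.21 (adjusted p = 0.0027, edgeR).

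Of 6 transcription factors known to act on ribosomal protein genes, MYC was the 1 gene called, at -0.33 (SE 0.11, adjusted p = 0.030, edgeR), and it was not called with library totals (adjusted p = 0.13). Of 10 genes that carry ribosomal proteins into the nucleus or guard them before assembly, the importins IPO9 (-0.46) and IPO5 (-0.53) were lower and 8 were not called. Of 9 genes of ribosome quality control and the MDM2 pathway, CDKN1A, an inhibitor of cyclin-dependent kinases, was called, at -0.38 (SE 0.13, adjusted p = 0.037, edgeR), but not with library totals (adjusted p = 0.11). MDM2 (-0.27), named for its role, was not called. Without siE7 replicate 1, 4 of the 6 transcription factors, 5 of the 10 import genes and 3 of the 9 quality control genes were called. The share of all tested genes called was 34.0% with all libraries, 16.0% being lower, and 58.4% without siE7 replicate 1. Of the called genes named from these lists of control, transcription, import and quality control, EIF4EBP2 and EIF4G1 were called in all 18 alternative settings, IPO9 in 15, IPO5 in 14, EIF4EBP1 in 12, CDKN1A in 11 and MYC in 10. MYC, CDKN1A and EIF4EBP1 each lost the call when any library other than siE7 replicate 1 was left out (adjusted p up to 0.14, edgeR).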

How the data were processed

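RNA of 3 siE7 and 3 siNC samples of SCC-9 cells was sequenced by the authors as stranded mRNA libraries with paired reads of 150 bases. The authors deposited whole-number counts of reads per gene, without normalization. The submitters' processing notes name HISAT2, DESeq2 and GRCh38. The counting tool, the annotation release, the strand setting and the treatment of reads that match several genes are not given in the sources used here. All count columns were used.

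Samples were grouped by their titles. Members were found by symbol, and all 81 identifiers were matched in GENCODE 44 (25283 of 25349 genes, 20655 with the same version), from which positions, lengths and GC content were taken. Genes passing filterByExpr were scaled by TMM and tested with edgeR 4.0.16 in R 4.3.3 (quasi-likelihood F-test, robust, Benjamini-Hochberg over all 14661 tested genes). A gene with an adjusted p under 0.05 is named called. Single values per library were tested by exact two-sided permutation, whose smallest p with 3 against 3 is 0.10. Ratios had 0.5 counts added to each gene. Depth was 25608192 to 29550264 counts per library. The steps were checked on simulated data.

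The genes named are 9 well-known members, the called members (up to 6 in each direction by size), the 5 members highest per kilobase, the paralog pairs, FAU, RACK1, MKI67 and up to 5 called genes in each list. Others are said to be named for their values or roles. RPS4Y1 is given no value, and some other genes that the rule names are not reported here. The members and lists were chosen with earlier results of these data known. Alternatives were DESeq2 1.42.0, other scalings and filters, a replicate block, removal of GC or length trends (lowess, span 0.3), each library left out, and, added after seeing the data, pseudogene and read-through rows added to their member and siE7 replicate 1 left out together with a GC or scaling change. Figures were drawn with matplotlib 3.10.9.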

Additional observations from a re-analysis of the deposited data

How the results depend on the processing

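The main count of 5 called members became 16 with library totals, 16 with the GC trend removed, 17 with the GC trend removed and a replicate block, 2 to 40 when each library was left out (40 without siE7 replicate 1), and, chosen after seeing the data, 39 and 58 without siE7 replicate 1 with the GC trend removed or with library totals. The share of all tested genes called was 34.0% in the main fit and 38.6% with library totals. It was 50.7% with the GC trend removed, 50.4% with the block as well, and 20.9% to 58.4% when each library was left out. Without siE7 replicate 1 it was 56.1% with the GC trend removed and 63.0% with library totals. Against the level of the other members the count of 4 became 1 to 31 when each library was left out. The median log2 fold change of 0.05 was 0.21 with library totals (0.21 in the large and 0.23 in the small subunit) and 0.30 with library totals without siE7 replicate 1. The difference in the share of counts, 0.576 percentage points, was 0.123 per effective library size. The fixed lists, leaving out the cell type markers and the read-through genes, together held 32 calls in all libraries. They held 76 with the GC trend removed, 75 with a replicate block as well and 9 to 96 when each library was left out. The shares of all tested genes called in these settings are those given above. Every setting with a library left out fitted fewer samples, and the cause of the changes was not tested.

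Deviations of same-numbered libraries from their group means correlated at -0.079 to -0.019, and those of differently numbered libraries at -0.052 to 0.083. With 3 libraries per group these values cannot tell whether the samples were paired. With the replicate number as a block 5 members were called, and RPL13A was not among them (adjusted p = 0.062, edgeR).

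Of 48 named genes, 10 changed sign in 38 of 864 alternative values, and none of these was called. With library totals the log2 fold change of RACK1 was 0.021, RPL10 0.056, RPL35 0.015, RPLP0 0.166 and RPLP1 0.039. RPL10 was not called with all libraries (-0.11), and was called without siE7 replicate 1 (-0.26, adjusted p = 0.00021, edgeR). With DESeq2 and RLE factors RPLP2 was -0.016 and -0.0067, RPS4X -0.023 and -0.014, and RPS6 -0.025 and -0.016. With the length trend removed, without and with a replicate block, RPLP2 was -0.053 and -0.057, RPS4X -0.011 and -0.015, and RPS6 -0.019 and -0.034. With the GC trend removed, without and with the block, RPLP0 was 0.024 and 0.025, and RPS6 -0.063 and -0.063. With the block, RPL26 was -0.0074 once the GC trend and -0.014 once the length trend was removed. RPLP0 was 0.025 with upper-quartile factors, 0.023 with at least 10 counts in every library and 0.0011 with the block alone. With each library left out in turn the values ranged for RPL26 from -0.080 to 0.234, RPL39 from -0.114 to 0.234, RPLP0 from -0.077 to 0.037, RPLP2 from -0.032 to 0.095, RPS4X from -0.0095 to 0.050 and RPS6 from -0.044 to 0.093.

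Depth limits RPL3L, with 1 to 7 counts. The assignment of reads to read-through or near-identical rows limits RPS10, RPL17, RPS28, RPL9, RPS2, RPL22, RPL26 and RPL39. RPS29, with 125 to 304 counts in a library, is limited by the genes annotated over its locus, whose part in its counts was not tested. With 3 libraries per group the permutation tests could not pass 0.05.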
